A study of Mus musculus with 30 samples.

Results

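Expression of 6 NADPH oxidase genes was followed in cultured mouse adipocytes given a uremic toxin or an oxidized lipoprotein. The genes were Nox4, Cyba, Cybb, Ncf1, Rac1 and Poldip2, chosen by name from the 54232 genes of the count table after their Ensembl identifiers had been matched to mouse symbols. The RNA came from 3T3-L1 cells, which are mouse preadipocytes that fill with fat under an adipogenic cocktail, and was sequenced in 6 groups of 5 libraries. All groups were kept in adipogenic medium for 5 days. The labels give 5 days for the treatments, whereas the methods of the study describe a shorter treatment after the adipogenic phase, so that its length is uncertain here. The groups were adipogenic medium alone (Control), pNaKtide at 0.7 µM, IS (indoxyl sulphate) at 100 µM, IS + pNaKtide, oxLDL (oxidized low-density lipoprotein) at 50 µg/mL and oxLDL + pNaKtide, with the same doses in the combined groups. The comparisons asked how the oxidase genes responded to IS, to oxLDL and to pNaKtide, a peptide that interferes with Src signaling through the Na,K-ATPase. The labels name 3T3 cells as the source, and their text on RNA extraction names adipose tissue, so that the samples were taken as cells. All groups share 1 cell line, nothing in the sources states that the libraries came from separate differentiations, and p-values then measure the spread between these libraries, which may be technical.

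NADPH oxidases are membrane enzymes that move electrons from NADPH to oxygen. Nox4 and gp91phox (Cybb) are catalytic subunits, and both are stabilized by p22phox (Cyba). The phagocyte enzyme built on gp91phox needs the organizer p47phox (Ncf1) and the GTPase Rac, whereas Nox4 is active without them and releases mostly hydrogen peroxide. Poldip2 binds p22phox and raises the activity of Nox4, and Nox4 is the catalytic subunit best known from adipocytes. Only RNA was measured here, and neither oxidase protein nor oxidant production was part of the data used.

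Library totals ran from 6945498 to 15159877 gene counts (median 11524210). Genes with more than 14 counts summed over the 30 libraries were tested, which were 20139 genes, and a gene was called at a BH-adjusted p-value of 0.1. A gene was read, that is, its change was interpreted, only with a median of at least 10 counts per library. Of the 6 members, 5 were tested and 3 were read. On the first principal component of log2 CPM, Control replicate 1 scored -25.8 against 6.47 to 29.9 in the other Control libraries, and IS replicate 4 scored 28.2 against -36.7 to -23.2 in the other IS libraries. On the same component oxLDL + pNaKtide replicate 4, the smallest library, scored 67.5 against 14.5 to 33.2 in its group, and pNaKtide replicate 3 scored -5.36 against 15.9 to 36.6. Of the members, results that change call without one of these libraries are given without it.

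Nox4 (ENSMUSG00000030562, chromosome 7 of GRCm38, 87246096 to 87398710, plus strand) had 979 counts in all, between 8 and 63 per library. Poldip2 (ENSMUSG00000001100, chromosome 11, 78512193 to 78522736, plus strand) had 58159 counts, and Rac1 (ENSMUSG00000001847, chromosome 5, 143503634 to 143528036, minus strand) had 68194. Too low to be read were Cybb (ENSMUSG00000015340, chromosome X, 9435252 to 9487771, minus strand) with 180 counts, Ncf1 (ENSMUSG00000015950, chromosome 5, 134220053 to 134229625, minus strand) with 49, and Cyba (ENSMUSG00000006519, chromosome 8, 122424776 to 122432930, minus strand) with 3. Per length, in the deposited FPKM values, Rac1 averaged 43.4 and Poldip2 44.5 over all libraries, against 0.312 for Nox4, 0.0875 for Cybb, 0.0343 for Ncf1 and 0.00899 for Cyba. Averaged over the 6 groups, the FPKM of Rac1 was 139 times and that of Poldip2 143 times that of Nox4. The catalytic subunit was therefore carried by few reads, and its stabilizing partner by almost none.

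The promoters of the pair that changed between groups and of the gene at almost no count are shown, each as 300 bases of GRCm38.p6 from RefSeq, with 250 bases before and 50 after the RefSeq start, 5′ to 3′ on the gene's strand. Capitals mark GCGTG, the core of the aryl hydrocarbon receptor element, or its reverse complement CACGC. The window is chr7:87246399-87246698 on the plus strand for Nox4, which lies inside the GENCODE gene, chr11:78512046-78512345 on the plus strand for Poldip2, and chr8:122432891-122433190 on the minus strand for Cyba.
Nox4: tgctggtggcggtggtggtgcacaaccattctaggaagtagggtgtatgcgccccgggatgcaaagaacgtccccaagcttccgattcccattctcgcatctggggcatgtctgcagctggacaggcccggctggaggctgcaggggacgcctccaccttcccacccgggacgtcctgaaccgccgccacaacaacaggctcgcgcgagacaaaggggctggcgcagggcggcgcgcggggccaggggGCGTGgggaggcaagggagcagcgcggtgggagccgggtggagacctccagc
Poldip2: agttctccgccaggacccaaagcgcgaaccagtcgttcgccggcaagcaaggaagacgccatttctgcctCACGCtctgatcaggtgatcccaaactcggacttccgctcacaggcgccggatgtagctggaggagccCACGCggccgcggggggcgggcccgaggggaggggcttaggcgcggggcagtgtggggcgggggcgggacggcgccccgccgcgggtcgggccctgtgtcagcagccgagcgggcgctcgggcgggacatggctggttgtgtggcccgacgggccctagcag
Cyba: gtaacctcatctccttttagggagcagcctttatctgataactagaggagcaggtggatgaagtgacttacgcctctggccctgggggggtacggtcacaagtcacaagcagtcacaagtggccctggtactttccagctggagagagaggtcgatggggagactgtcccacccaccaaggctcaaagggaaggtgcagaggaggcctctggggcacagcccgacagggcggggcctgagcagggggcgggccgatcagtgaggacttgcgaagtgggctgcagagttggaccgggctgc
The Nox4 window held 1 GCGTG site, starting at base 249, the Poldip2 window 2 sites and the Cyba window 0, and 32.4% of 32851 RefSeq promoters of this length held at least 1 on either strand. Neither TGACNNNGC, the antioxidant response element, nor TGANTCA, the AP-1 site, was found on either strand of these 3 windows, where 12.4% and 7.81% of all promoters held them. In G and C, the Nox4 window (68.3%) exceeded 88.0% of promoters, Poldip2 (72.0%) exceeded 93.1% and Cyba (60.7%) exceeded 72.2%. The longest transcript of Nox4 differed from its promoter in this respect, with 37.9% G and C, and only 2.49% of 20107 tested genes had a lower GC content. The longest transcript of Poldip2 had 55.4%, above 81.6% of the genes. Merged over all transcripts of the gene, the exons covered 8471 bases in Nox4 and 3783 in Poldip2.

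Nox4 was high in oxLDL-treated cells, somewhat less high with IS, and lowest with oxLDL + pNaKtide. In Control replicates 1 to 5 it had 3.20, 2.53, 1.91, 1.79 and 1.51 CPM (counts per 1000000 after TMM normalization). With oxLDL it had 3.95, 4.08, 3.21, 3.06 and 4.11 CPM, and with oxLDL + pNaKtide 1.97, 2.01, 1.87, 1.32 and 1.91 CPM. All oxLDL libraries lay above all oxLDL + pNaKtide libraries, and 4 of the 5 oxLDL libraries lay above the highest Control library, which was Control replicate 1. Nox4 was thus not among the 4.83% of all genes with every oxLDL library above every Control library, and no share of genes was counted for 4 of 5. With IS the values were 3.94, 3.11, 3.62, 2.82 and 3.54 CPM, and with IS + pNaKtide 2.70, 3.60, 3.13, 2.15 and 2.89 CPM. The IS and IS + pNaKtide groups overlapped, and 3 of 5 IS libraries exceeded the highest Control library. With pNaKtide alone Nox4 had 1.58, 1.49, 2.81, 1.96 and 2.33 CPM, inside the spread of the Control libraries except for replicate 2, just under the lowest of them. The group means, in order, were 3.68 ± 0.506 CPM with oxLDL, 3.41 ± 0.441 with IS, 2.89 ± 0.535 with IS + pNaKtide, 2.19 ± 0.676 in Control, 2.03 ± 0.546 with pNaKtide and 1.82 ± 0.280 with oxLDL + pNaKtide (SD, n = 5). No group differed from the next in this order, with adjusted p-values from 0.251 to 1.00 in edgeR's quasi-likelihood test.

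**Figure D1:**
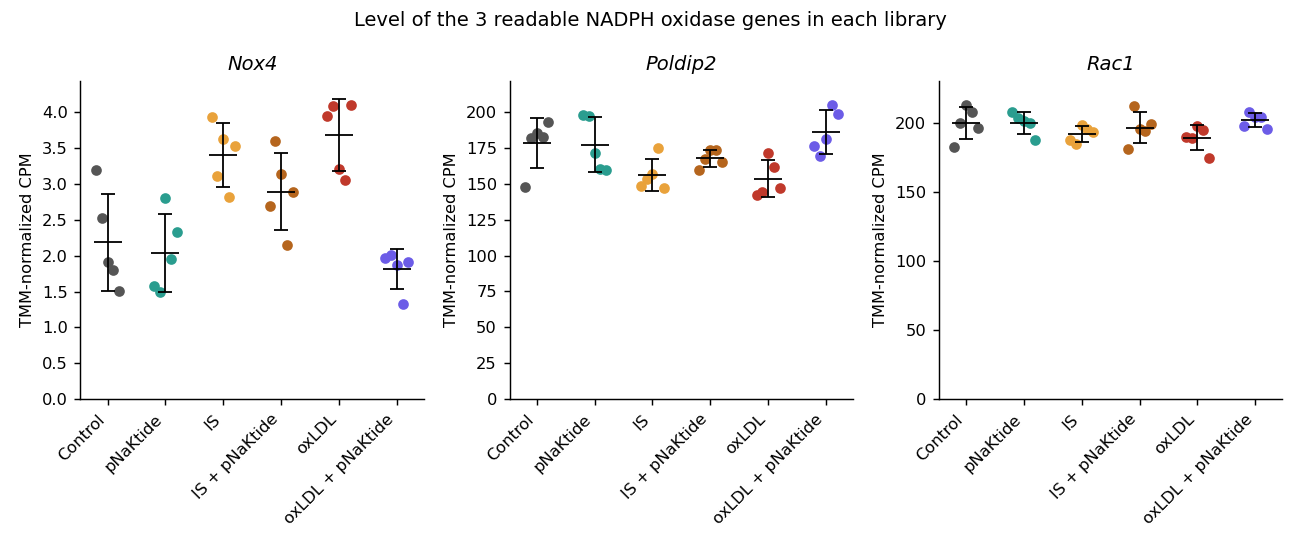
Level of Nox4, Poldip2 and Rac1 in each of the 30 libraries, in TMM-normalized CPM, by group; points are libraries, horizontal bars the means and vertical bars the SD over 5 libraries. The oxLDL + pNaKtide libraries of Nox4, at 1.32 to 2.01 CPM, all lie below the oxLDL libraries at 3.06 to 4.11 CPM, while Poldip2 moves the other way by a smaller amount.

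Across the 6 groups, Nox4 (adjusted p = 0.000199) and Poldip2 (0.0360) differed and Rac1 (0.767) was not called in edgeR's quasi-likelihood test, 2 of 3 readable members where 45.1% of all tested genes were called. With oxLDL, Nox4 rose 1.67-fold over Control (log2 0.74, SE 0.18, adjusted p = 0.00850, edgeR), and Poldip2 fell. These were 2 of 3 readable members, and 36.0% of all genes were called in this comparison. With IS, Nox4 rose 1.54-fold over Control (log2 0.62, SE 0.18, adjusted p = 0.0694, edgeR), the only member of 3 called where 7.94% of genes were. Leaving out any of Control replicates 2 to 5 or IS replicates 1, 2, 3 or 5 ended the call of Nox4 with IS, at adjusted p-values of up to 0.213 (edgeR). Without Control replicate 1 and IS replicate 4 together, the log2 fold change of Nox4 was 0.85 with IS (adjusted p = 0.000605, edgeR) and 0.92 with oxLDL (0.000166). In a fit restricted to IS and Control, the change with IS (0.63) was not called (adjusted p = 0.236, edgeR).

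When pNaKtide was added to oxLDL, Nox4 fell 2.01-fold, a log2 fold change of -1.01 (95% CI -1.40 to -0.61, adjusted p = 0.000145, edgeR's quasi-likelihood test). Poldip2 rose in the same comparison, so that 2 of 3 readable members were called, where 48.3% of all genes were, and the groups did not overlap for 14.8% of genes that were lower and 13.6% that were higher. When pNaKtide was added to IS, the log2 fold change of Nox4 was -0.25 (95% CI -0.59 to 0.10, adjusted p = 1.00, edgeR). Of the 3 members 0 were called there, 0 had an unadjusted p-value below 0.05 and DESeq2 called 0, where edgeR called 0.00% of all genes. The change of Nox4 with pNaKtide under oxLDL was more negative than that under IS, at a log2 difference of -0.76 (SE 0.26, adjusted p = 0.0370, edgeR), and 29.3% of genes differed in this test. It was also more negative than the change with pNaKtide alone, at -0.90 (SE 0.28, adjusted p = 0.0373, edgeR), in a test that called 24.6% of genes, but not without pNaKtide replicate 3, the highest Nox4 library of its group (-0.73, adjusted p = 0.119). Without oxLDL + pNaKtide replicate 4, the lowest Nox4 library of all, the difference from pNaKtide alone was -0.82 (adjusted p = 0.0844, edgeR), that from IS was -0.68 (0.0901), and the fall from oxLDL was -0.93 (0.000865). Under IS the same difference from pNaKtide alone was -0.14 (95% CI -0.68 to 0.40, adjusted p = 1.00, edgeR), in a test that called 0.00% of genes.

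pNaKtide alone did not produce a detectable difference in Nox4 from Control, at a log2 fold change of -0.11 (95% CI -0.52 to 0.31, adjusted p = 0.973, edgeR's quasi-likelihood test). With oxLDL + pNaKtide it was -0.27 from Control (95% CI -0.69 to 0.16, adjusted p = 0.564, edgeR) and with IS + pNaKtide 0.38 (95% CI -0.000199 to 0.76, adjusted p = 0.251, edgeR). The latter was called without Control replicate 1, at 0.56 (adjusted p = 0.0426, edgeR). IS and oxLDL libraries differed by -0.12 in Nox4 (95% CI -0.45 to 0.22, adjusted p = 0.892, edgeR). In these 4 comparisons 0 of 3 members were called and 0 had an unadjusted p-value below 0.05, DESeq2 called 0, and the share of all genes called was 0.00497%, 5.20%, 0.358% and 0.0149%, in the order given.

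The changes of Nox4 were not called once GC content and gene length were modelled. In an edgeR fit with offsets for the trend of each library over these gene properties, the change of Nox4 was 0.06 with oxLDL (adjusted p = 0.856), 0.13 with IS (0.753) and -0.11 for oxLDL + pNaKtide against oxLDL (0.701). The difference between groups in general was no longer called (adjusted p = 0.952), and the 95% CI for oxLDL + pNaKtide against oxLDL became -0.47 to 0.25. Beyond these values, the part of base composition and length in the changes of Nox4 was not tested. Scaling by library size alone left the calls of Nox4 in place, at 0.87 with oxLDL, 0.74 with IS and -1.23 for oxLDL + pNaKtide against oxLDL.

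Poldip2, the partner of p22phox, moved the opposite way and by less. In Control replicates 1 to 5 it had 148, 182, 186, 183 and 193 CPM. With oxLDL it had 142, 145, 172, 162 and 147 CPM, and with oxLDL + pNaKtide 176, 169.7, 181, 205 and 199 CPM. The oxLDL + pNaKtide libraries lay above the oxLDL libraries except replicate 2, which was under oxLDL replicate 3, and Control replicate 1 stood below the other Control libraries. With IS it had 149, 154, 157, 175 and 147 CPM, with IS + pNaKtide 159.9, 167, 174, 174 and 165 CPM, and with pNaKtide 198, 197, 172, 161 and 159.9 CPM. IS replicate 4 was the highest of the IS libraries, and all these groups overlapped with Control.

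Poldip2 had a log2 change of -0.22 with oxLDL, a fall (SE 0.08, adjusted p = 0.0538 in edgeR) and was 0.28 higher with oxLDL + pNaKtide than with oxLDL (SE 0.08, adjusted p = 0.00826, edgeR). Its response to pNaKtide under oxLDL exceeded that to pNaKtide alone by 0.29 (SE 0.12, adjusted p = 0.0955, edgeR), in the test that called 24.6% of genes, and 12 of 20 fits that left out 1 library did not call Poldip2, those without oxLDL + pNaKtide replicate 4 (adjusted p = 0.175) and pNaKtide replicate 3 (0.154) among them. With IS its log2 fold change was -0.19 (95% CI -0.36 to -0.02, adjusted p = 0.163, edgeR), which became -0.295 and was called when Control replicate 1 and IS replicate 4 were left out (adjusted p = 0.00438). The call with oxLDL was lost without Control replicates 2, 4 or 5 or oxLDL replicates 1, 2 or 5, at adjusted p-values of up to 0.138 (edgeR), whereas without Control replicate 1 the change was -0.28 (0.00829). Scaling by library size alone (-0.09 with oxLDL and 0.05 for oxLDL + pNaKtide against oxLDL) and the GC and length offsets (-0.01 and 0.06) ended these calls. The group means of Poldip2 ran from 186 ± 15.2 CPM with oxLDL + pNaKtide through 178 ± 17.5 in Control, 177 ± 19.0 with pNaKtide, 168 ± 5.86 with IS + pNaKtide and 156 ± 11.3 with IS to 154 ± 12.8 with oxLDL (SD, n = 5), and no neighbours in this order differed (adjusted p from 0.575 to 1.00, edgeR).

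Rac1, the GTPase of the oxidase and of the actin cytoskeleton, was nearly level across the groups. The Control libraries ranged from 183 to 214 CPM with a median of 200.1, and the oxLDL libraries from 175 to 198 CPM with a median of 190.3. With oxLDL + pNaKtide it ranged from 196 to 208 CPM around a median of 204, with IS from 185 to 199 around 194, with IS + pNaKtide from 181 to 213 around 196 and with pNaKtide from 188 to 208 around 202. All group means lay between 189.6 ± 8.93 CPM (oxLDL) and 202 ± 5.05 CPM (oxLDL + pNaKtide) (SD, n = 5). Rac1 was called in no comparison in edgeR with TMM, where its log2 fold changes between groups ran from -0.08 (oxLDL against Control, 95% CI -0.21 to 0.05) to 0.09 (oxLDL + pNaKtide against oxLDL, 95% CI -0.04 to 0.23). The direction of the latter depended on the scaling, at 0.25 with the GC and length offsets (adjusted p = 0.00220, edgeR), 0.12 in DESeq2 (adjusted p = 0.0271) and -0.13 with library size alone (adjusted p = 0.0650, edgeR). With the offsets, Rac1 was also called across the 6 groups (adjusted p = 0.00945, edgeR) and for the change with pNaKtide under oxLDL against that under IS (0.22, adjusted p = 0.0941). In GENCODE M21, 51.4% of the exon bases of Rac1 overlap exons of Daglb on the opposite strand. The kit keeps the strand, the strand setting of the counting is not given in the sources used here, and the value of Rac1 is uncertain to that extent.

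**Figure D2:**
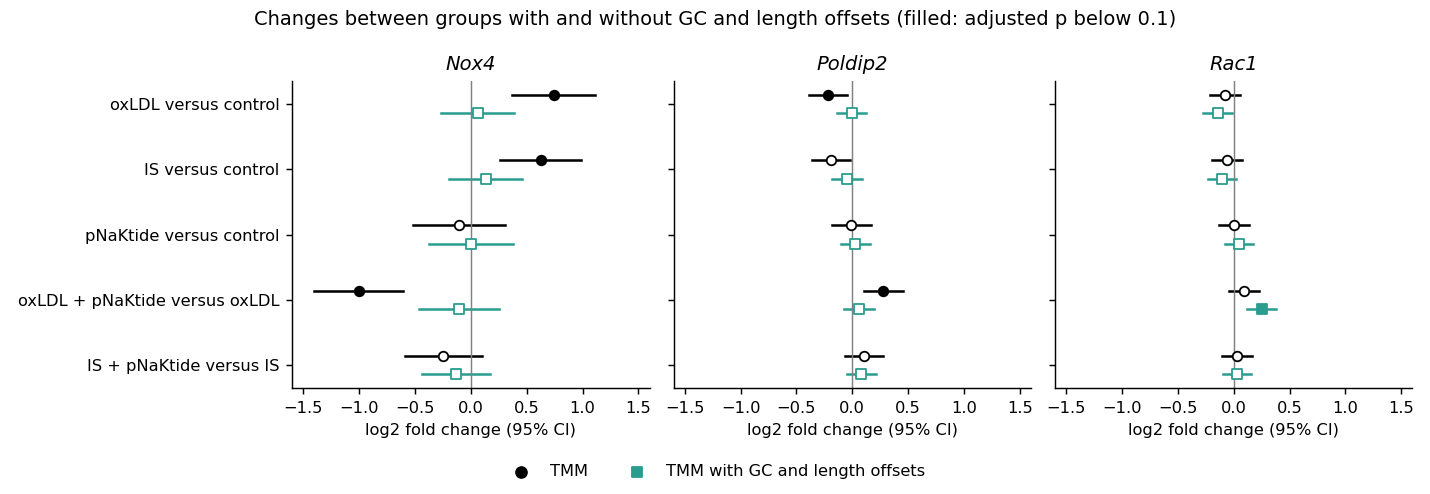
Log2 fold changes of Nox4, Poldip2 and Rac1 in 5 comparisons, with 95% confidence intervals, from edgeR with TMM (circles) and with offsets for GC content and gene length (squares); filled symbols have an adjusted p below 0.1. The interval of Nox4 for oxLDL + pNaKtide against oxLDL moves from -1.40 to -0.61 with TMM to -0.47 to 0.25 with the offsets.

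The other 3 members were too low for any change to be read. Cybb, the catalytic subunit of phagocytes, had a count in all 30 libraries but a median of only 5 and at most 12. Its summed counts were 27 in Control, 24 with pNaKtide, 37 with IS, 33 with IS + pNaKtide, 39 with oxLDL and 20 with oxLDL + pNaKtide. Pooled over all libraries this is 0.523 CPM (exact Poisson 95% interval 0.449 to 0.605, for counting error only). Ncf1, the organizer, was found in 23 libraries with at most 8 counts, in oxLDL replicate 1, and 0.142 CPM in all (exact Poisson 95% interval 0.105 to 0.188). Its counts per group lay between 4 with pNaKtide and 13 with oxLDL, and 11.1% of its exon bases overlap exons of Gtf2ird2 on the opposite strand.

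Cyba, the stabilizing partner of Nox4 and gp91phox, had 1 count in Control replicate 3, 2 in Control replicate 5 and 0 in the other libraries. The 0 counts in the 25 libraries of the other groups allow at most 3 of 287669927 counts, or 0.0104 CPM, for counting error only, and no fold is given, since the 3 counts of Control would be its only base. No exon base of Cyba overlaps another gene in GENCODE M21, and no stretch of 50 bases, the length of 1 read, is shared with another gene. Of its neighbours, Mvd, whose 3′ end lies just upstream of it, had 29147 counts, while Il17c had 11 and Snai3 29. The cause of this low count was not tested.

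Other genes of the oxidase family were read where possible, from a list of 17. The catalytic subunits Nox1 and Nox3 had 12 counts and 1 count over the 30 libraries, Duox1 had 18 and Duox2 had 7, so that Nox4 was the only catalytic subunit that could be read. Of the cytosolic and maturation factors, Noxo1 (217 counts, median 7), Duoxa1 (27), Rac2 (4) and Ncf4 (2) were too low, and Noxa1 and Duoxa2 had 0 counts, which allow up to 0.00872 CPM over the 30 libraries. The 6 that were read were Rac3, Cybc1, Rap1a, Rap1b and the p47phox-related scaffolds Sh3pxd2a and Sh3pxd2b. In all, 9 of 23 oxidase genes were readable.

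**Figure D3:**
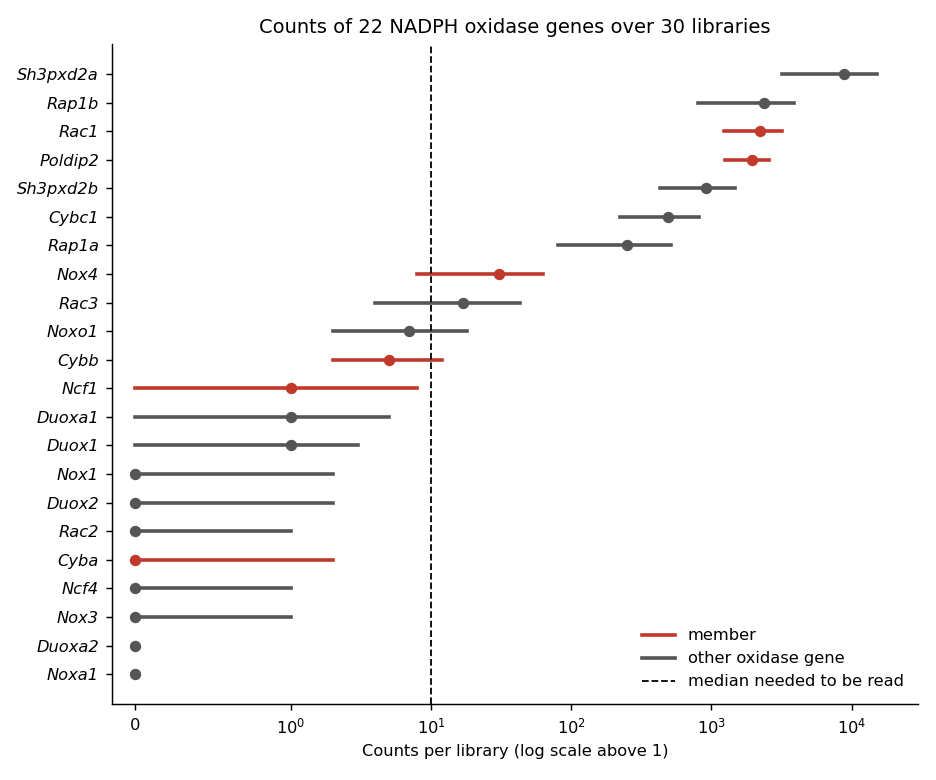
Counts per library of the 6 members and other oxidase genes named in the text, on a log scale above 1; points are medians and lines the lowest to highest of 30 libraries, and the dashed line is the median of 10 counts needed for a gene to be read. Nox4 is the only catalytic subunit to the right of the line, and Cyba lies at a median of 0.

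Of these 6, with oxLDL 2 rose and 0 fell, where 36.0% of all genes were called, at a median log2 fold change of 0.31, against 0.04 over all genes. They were Rap1a, which co-purifies with the phagocyte cytochrome, from 19.0 ± 4.58 to 29.5 ± 5.78 CPM (log2 fold change 0.63, adjusted p = 0.00979, edgeR's quasi-likelihood test), and Rap1b (0.38, adjusted p = 0.0196). With the GC and length offsets 0 of the 6 were called with oxLDL, Rap1a being at 0.09 (adjusted p = 0.545, edgeR) and Rap1b at -0.11 (0.236). When pNaKtide was added to oxLDL, 0 rose and 3 fell, where 48.3% of all genes were called, at a median of -0.34 against -0.09 over all genes. Library size alone gave 0 higher and 5 lower, and the offsets 1 higher and 3 lower. Rap1a fell by 0.69 (adjusted p = 0.00123, edgeR) and Rap1b by 0.38 (0.0103), but with the GC and length offsets Rap1a changed by -0.03 and Rap1b by 0.25 in the opposite direction. Cybc1, a chaperone needed for the assembly of gp91phox with p22phox, had 45.3 ± 1.86 CPM with oxLDL and 36.7 ± 3.64 CPM with oxLDL + pNaKtide, and so fell (log2 -0.30, SE 0.07, adjusted p = 0.00153, edgeR). Cybc1 changed by -0.36 with the offsets (adjusted p = 0.000192, edgeR) and by -0.52 with library size alone, and it was called in all 10 fits that left out 1 library. The log2 fold changes of Rac3 (0.49, then -0.66), Sh3pxd2a (0.23, then -0.17) and Sh3pxd2b (-0.17, then -0.23) were called in neither comparison, at adjusted p-values from 0.156 to 0.500 (edgeR). With the offsets, Rac3 (-1.21) and Sh3pxd2b (-0.26) were called lower when pNaKtide was added to oxLDL. With IS, where 7.94% of all genes were called, 0 of 6 were called, with 2 at an unadjusted p-value below 0.05 and 0 in DESeq2.

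Genes that load Rac with GTP or hold it inactive were counted in a list of 33, of which 26 were read. With oxLDL 4 rose and 4 fell, where 36.0% of all genes were called, at a median of 0.05 against 0.04 over all genes. Among those that rose were Dock1, an exchange factor for Rac, by 0.35 (adjusted p = 0.0201, edgeR's quasi-likelihood test), Vav3 by 0.53 (0.0485) and Elmo3, a partner of Dock proteins, by 1.00 (0.0630). Arhgdia, the main inhibitor that keeps Rac and related GTPases in the cytosol, fell from 643 ± 113 to 429 ± 46.5 CPM (log2 -0.58, adjusted p = 0.00917, edgeR), and Arhgdib (-0.41) and the Rac GTPase activator Bcr (-0.31) fell with it (0.0408 and 0.0523). Elmo3 stood at the limit for being read, with a median of 10 counts per library and a count in 29 of 30 libraries. Elmo3 was not called in 3 of 10 fits that left out a library, Bcr in 3, and Vav3 and Arhgdib in 4 each, at adjusted p-values of up to 0.165 (edgeR). With the GC and length offsets Vav3 (adjusted p = 0.188) and Bcr (0.268) were not called, and the split became 3 higher and 6 lower, against 6 higher and 2 lower with library size alone.

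When pNaKtide was added to oxLDL, 4 of these 26 rose and 9 fell, where 48.3% of all genes were called, at a median of -0.14 against -0.09 over all genes. Arhgdia rose to 799 ± 145 CPM (log2 0.90, adjusted p = 3.58e-05, edgeR's quasi-likelihood test), Arhgdib by 0.60 (0.00169) and Bcr by 0.37 (0.0125). Dock1 fell from 69.2 ± 3.58 to 36.5 ± 6.48 CPM, by 0.92 on the log2 scale (adjusted p = 3.63e-06, edgeR) and Vav3 by 0.99 (0.00041). With the GC and length offsets Arhgdia (0.47) and Dock1 (-0.68) were still called, and the split became 8 higher and 8 lower, against 2 higher and 13 lower with library size alone. With IS, where 7.94% of all genes were called, 0 of 26 were called, 5 had an unadjusted p-value below 0.05, and DESeq2 called 3.

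Enzymes of NADPH supply were counted in a list of 18, of which 17 were read. NADPH is the electron donor of the oxidase, and the list held enzymes that form it, the NAD kinases, which make its precursor NADP, and the lactonase Pgls. With oxLDL 2 rose and 8 fell, where 36.0% of all genes were called, at a median of -0.13 against 0.04 over all genes. G6pdx, the entry enzyme of the pentose phosphate pathway, fell from 534 ± 87.8 to 365 ± 38.8 CPM (log2 -0.55, SE 0.14, adjusted p = 0.00957 in edgeR). Pgd, the other NADPH-forming enzyme of that pathway, fell by 0.48 (adjusted p = 0.0100, edgeR), and the cytosolic NAD kinase Nadk by 0.32 (0.00966). Nadk2, the mitochondrial NAD kinase, rose by 0.64 (adjusted p = 0.00783, edgeR) and Mthfd2l by 0.29 (0.0684), though Mthfd2l changed by -0.27 with the GC and length offsets. The offsets kept G6pdx (-0.39), Pgd (-0.58), Nadk (-0.20) and Nadk2 (0.32) past the threshold, and gave 1 higher and 8 lower in the list, whereas library size alone gave 4 higher and 5 lower.

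When pNaKtide was added to oxLDL, 6 NADPH genes rose and 5 fell, where 48.3% of all genes were called, at a median of 0.03 against -0.09 over all genes. The offsets gave 8 higher and 4 lower, and library size alone 4 higher and 9 lower. The 3 with the smallest adjusted p-values among those that rose were Pgls, G6pdx and Pgd, with G6pdx at 624 ± 134 CPM (log2 fold change 0.78, adjusted p = 8.94e-05, edgeR's quasi-likelihood test), Pgd up by 0.56 (0.000685) and Pgls, the lactonase between them, up by 1.12 (5.1e-05). H6pd, which catalyses the same first steps in the endoplasmic reticulum, was at 0.12 and not called (adjusted p = 0.278, edgeR). Pgls, G6pdx and Pgd were called under all 11 alternatives and without any 1 of the 10 libraries, with 0.84, 0.62 and 0.76 under the GC and length offsets. Idh1, the cytosolic isocitrate dehydrogenase, fell from 615 ± 35.0 to 381 ± 48.6 CPM (log2 fold change -0.69, adjusted p = 3.92e-05, edgeR), the mitochondrial folate enzyme Aldh1l2 fell by 0.74 (3.58e-05) and Nadk2 by 0.70 (0.000367). In the test of the pNaKtide change under oxLDL against that under IS, which shares the oxLDL arms, 3 of the 17 were called higher and 3 lower, where 29.3% of all genes were called. The higher ones were G6pdx (log2 difference 0.73), Pgd (0.51) and Pgls (1.07), at adjusted p = 0.0155, 0.0411 and 0.0114 (edgeR). The lower ones were Aldh1l2 (-0.82), Nadk2 (-0.86) and Idh1 (-0.66), at adjusted p = 0.00965, 0.0101 and 0.0111 (edgeR). All 6 were also called with the offsets, which gave 3 higher and 4 lower in the list, and library size alone gave 3 higher and 7 lower. The 6 NADPH supply genes called in this test with TMM thus went in both directions, and the rest of the 17 were not called. With IS, where 7.94% of all genes were called, 0 rose and 2 of 17 fell, Nadk by 0.30 and H6pd by 0.25 (adjusted p = 0.0636 and 0.0889, edgeR), and 7 had an unadjusted p-value below 0.05. Where 1 library was left out, only the fits without Control replicate 1 or IS replicate 4 called Nadk or H6pd with IS, and DESeq2 called 6 genes lower. H6pd was not called with the offsets (-0.11, adjusted p = 0.307, edgeR) or with library size alone (0.193), which gave 1 higher and 1 lower in the list. When pNaKtide was added to IS, 0 of the 6 oxidase partners, 0 of the 26 Rac genes and 0 of the 17 NADPH genes were called in edgeR or DESeq2, with 0, 0 and 1 at an unadjusted p-value below 0.05, where edgeR called 0.00% of all genes.

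**Figure D4:**
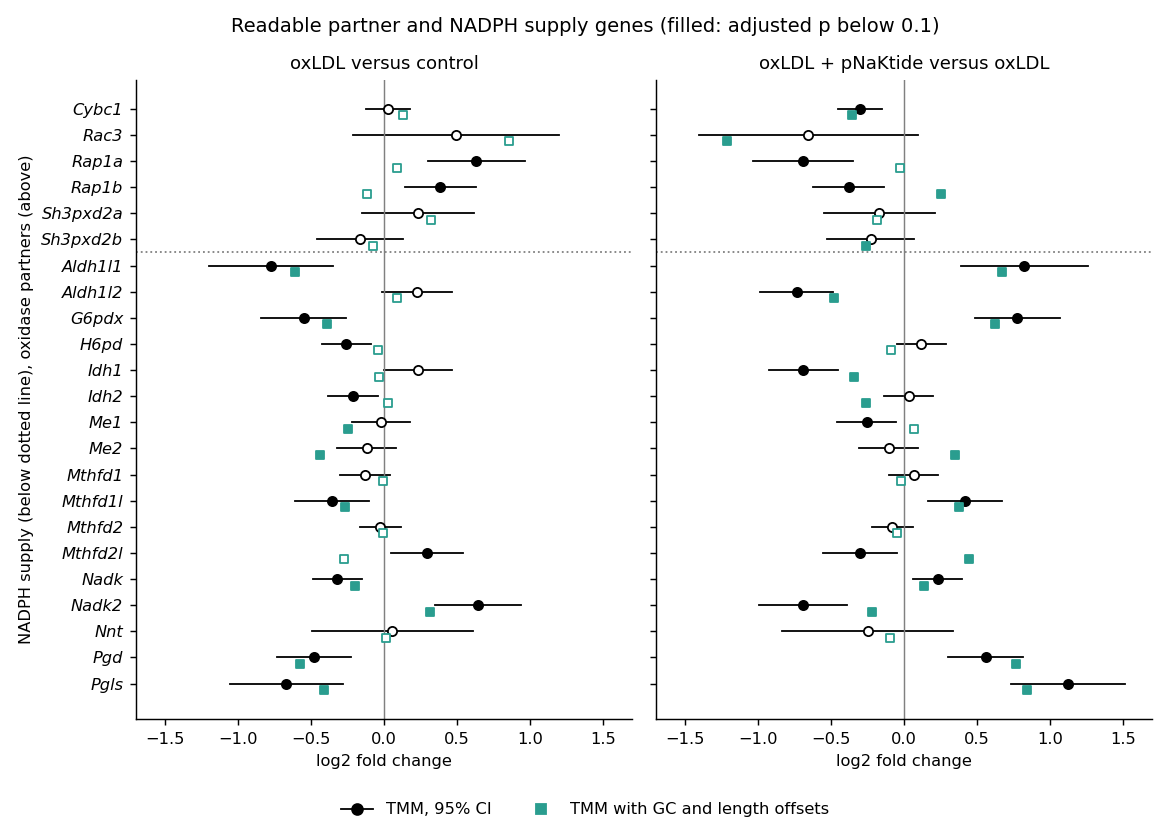
Log2 fold changes of the 6 readable oxidase partners and the 17 readable NADPH supply genes with oxLDL against Control and with oxLDL + pNaKtide against oxLDL, from edgeR with TMM (circles, 95% confidence intervals) and with offsets for GC content and gene length (squares); filled symbols have an adjusted p below 0.1. G6pdx and Pgls stand at -0.55 and -0.67 with oxLDL and at 0.78 and 1.12 with pNaKtide added, with both kinds of symbol on the same side of 0.

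Over the 30 libraries, the genes whose log2 CPM followed Nox4 most closely were Casd1 (Pearson r = 0.92), Serinc3 (0.91) and Casp8ap2 (0.91), out of 12579 genes whose log2 CPM averaged 1 or more, of which the 95th percentile of r was 0.83. Poldip2 was followed by Tmem86a (r = 0.96), Ndufv1 (0.96) and Tspo (0.96), and Rac1 by Tomm20 (0.82), Arf1 (0.78) and Stx5a (0.76). These values describe libraries that share groups, depth and base composition, and carry no test. Casp8ap2, for example, had a mean of 14.2 CPM with oxLDL and 5.86 CPM with oxLDL + pNaKtide.

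Cell identity was set beside these results, since in bulk RNA fewer cells of a type and less RNA per cell cannot be told apart. Of 8 adipocyte markers 7 were read, and the summed level of the 8 ranged from 12300 to 15300 CPM in Control, 13300 to 16800 with pNaKtide alone, 10300 to 12700 with IS, 11400 to 13200 with IS + pNaKtide, 11700 to 15600 with oxLDL and 14400 to 16000 with oxLDL + pNaKtide. The summed level of 8 preadipocyte and fibroblast markers ranged from 4950 to 6260 CPM in Control, 3730 to 5810 with pNaKtide alone, 3230 to 5050 with IS, 3290 to 4240 with IS + pNaKtide, 4190 to 4970 with oxLDL and 4090 to 5730 with oxLDL + pNaKtide. The IS + pNaKtide libraries were all below Control, and the median with pNaKtide alone was 3940 CPM against 5630 CPM in Control. With oxLDL 2 of these 7 adipocyte markers were called, Cebpa (-0.30, adjusted p = 0.0451, edgeR) and Cidec (-0.34, 0.0493), both lower, and of the 8 preadipocyte and fibroblast markers Dlk1 (-0.69) and Col1a1 (-0.57) fell and Postn (0.45) rose, where 36.0% of all genes were called. With the GC and length offsets Cebpa (0.0084), Cidec (-0.04), Dlk1 (adjusted p = 0.121, edgeR), Col1a1 (0.173) and Postn, which turned to -0.33, were not called with oxLDL. With library size alone neither Cebpa nor Cidec was called and 2 other adipocyte markers were called higher. With oxLDL the offsets called 1 of the 7 adipocyte markers lower, a gene other than Cebpa and Cidec, and DESeq2 called 1 higher and 3 lower. With IS, where 7.94% of all genes were called, 3 of the 8 preadipocyte and fibroblast markers fell, Col3a1 (-0.41), Col1a1 (-0.79) and Ly6a (-0.44). The offsets kept these 3 calls, whereas library size alone gave 2 lower, without Ly6a (adjusted p = 0.141, edgeR). Of the 7 adipocyte markers, 3, namely Adipoq, Cebpa and Cidec, fell with IS (adjusted p = 0.0719, 0.0487 and 0.0614, edgeR). With the offsets Cebpa was not called with IS (-0.26, adjusted p = 0.1365, edgeR), while Adipoq and Cidec were, and library size alone kept all 3 calls. The same 3 genes rose from oxLDL to oxLDL + pNaKtide, by 0.44, 0.35 and 0.38 (adjusted p = 0.00461, 0.0130 and 0.0184, edgeR's quasi-likelihood test), where 48.3% of all genes were called. The part of these shifts in the changes of Nox4 was not tested. For oxLDL + pNaKtide against oxLDL, the GC and length offsets kept the call of Adipoq (0.41) but not those of Cebpa (-0.08) and Cidec (-0.01). Over the 7 adipocyte markers the offsets gave 3 higher and 0 lower, and DESeq2 gave 5 higher and 0 lower. Library size alone gave 1 adipocyte marker higher and 1 lower. Of the 8 preadipocyte and fibroblast markers 4 were called in the same comparison, a share near that of all genes. Dlk1 and Ly6a rose by 1.00 and 0.54, and Postn and Pdgfra fell by 0.83 and 0.57 (adjusted p = 0.00157, 0.00456, 1.03e-05 and 0.00112, edgeR), and with the offsets Postn was at 0.23 and not called. Library size alone gave 2 higher and 4 lower. Of 8 phagocyte and leukocyte markers, Ptprc, Itgam and Tyrobp had 0 counts in all libraries and Adgre1 and Spi1 had 4 and 6. Their summed level was 4.27 to 7.90 CPM in Control, 4.87 to 7.33 with oxLDL and 5.07 to 7.12 with oxLDL + pNaKtide, mostly from Cd68 (1569 counts) and Lyz2 (518 counts), and neither was called between any of these 3 groups in edgeR with TMM or in DESeq2.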

How the data were processed

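RNA of 30 libraries in 6 labelled groups of 5 was analysed. For the count values, the authors trimmed paired reads of 50 bases from stranded mRNA libraries (Trimmomatic 0.38), aligned them to GRCm38 (HISAT2 2.1.0) and counted them per gene with GenomicAlignments, with no normalization or pooling. The FPKM values, as deposited, were scaled by the authors for depth and gene length. Not given in the sources used here were the annotation release, gene lengths and strand setting. Columns of the authors' normalized values were not used here.

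Of 54232 genes, 54079 were matched to a symbol through GENCODE M21, and 20139 with over 14 summed counts were fitted over 6 groups by edgeR 4.0.16 (TMM, robust quasi-likelihood, two-sided), with BH adjustment over all of them and a threshold of 0.1. R 4.3.3, Python 3.11.15, numpy 2.4.6, pandas 2.3.3 and scipy 1.17.1 were used, and the steps were tested on simulated data. Log2 CPM had a prior count of 2. No libraries of a group were duplicates (lowest chi-square per degree of freedom 1.28 over 60 pairs). Alternatives were DESeq2 1.42.0, its size factors, library size only, filterByExpr, no filter, an adjusted p of 0.05, a replicate block, fits of the compared groups, limma-trend (limma 3.58.1) on log2(FPKM + 1) for the 13639 genes averaging 0.5 FPKM or more, offsets for smooth trends over GC content and length (mgcv 1.9.3), and leaving out libraries. The members, gene lists and alternatives were chosen with earlier results of these data known. Named list genes were, per list and comparison, at most 3 called in each direction with the smallest adjusted p, beside the readable oxidase partners. Some genes of the lists are counted in them but not reported here by name. Motifs were searched on both strands of RefSeq promoters. Intervals and limits for counts cover counting error only.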

Additional observations from a re-analysis of the deposited data

Results flagged for a closer look

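With oxLDL + pNaKtide, the lowest Nox4 library, replicate 4 at 1.32 CPM, stood far from the others (1.87 to 2.01 CPM). In Control, replicate 1 of Poldip2 at 148 CPM stood far below the others (182 to 193 CPM), and this library also stood apart on the first principal component. About 1 in 20 groups would be set apart in this way by chance. The change of Nox4 with pNaKtide differed between settings, being more negative under oxLDL than alone by -0.898 on the log2 scale and more negative under oxLDL than under IS by -0.761 (adjusted p = 0.0373 and 0.0370, edgeR's quasi-likelihood test). With the GC and length offsets neither difference was called, at -0.111 (adjusted p = 0.845, edgeR) and, with the sign turned, 0.0289 (0.998). For Poldip2 the change with pNaKtide under oxLDL exceeded that of pNaKtide alone by 0.286 (adjusted p = 0.0955, edgeR), and it was 0.03 with the offsets (adjusted p = 0.878).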

How the results depend on the processing

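Of the alternatives other than leaving out 1 library, 98 of 110 values of Nox4, 97 of 121 of Poldip2, 103 of 121 of Rac1 and 307 of 329 of the named list genes kept their direction and their side of the threshold. limma-trend could not include Nox4, whose mean FPKM was below 0.5. With oxLDL 2 members were called, but 1 at an adjusted p of 0.05, with library size only, in limma or without a filter, 0 with the GC and length offsets, and 1 to 2 with 1 library left out. With IS 1 was called, but 2 in DESeq2 or without Control replicate 1 and IS replicate 4, 0 with the offsets, at 0.05, in limma or with only the groups compared, and 0 to 2 with 1 library left out. For IS + pNaKtide against Control the count of 0 became 1 without those libraries and 0 to 1 with 1 library left out. For oxLDL + pNaKtide against oxLDL 2 became 1 with the offsets, and the 1 was Rac1, with Nox4 and Poldip2 both lost. For the oxLDL by pNaKtide difference 2 became 1 at 0.05, with library size only, in limma, without a filter or with only the groups compared, 0 with the offsets, and 0 to 2 with 1 library left out. For any group 2 became 1 with the offsets (Rac1 in place of Nox4 and Poldip2), library size only or limma. For pNaKtide under oxLDL against under IS 1 became 0 in limma, and the 1 called with the offsets was Rac1 in place of Nox4. The counts in limma are without Nox4 and are no test of it, and for the other moves the cause was not tested.

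Directions turned mostly for values near 0. With the offsets, the log2 fold change of Nox4 was 0.0033 for pNaKtide against Control, -0.0017 for IS + pNaKtide against Control, 0.075 for IS against oxLDL and 0.029 for the change with pNaKtide under oxLDL against under IS, and without Control replicate 1 and IS replicate 4 it was 0.074 for pNaKtide. With library size only, Rac1 was at 0.051 with oxLDL, 0.059 with IS, -0.031 with pNaKtide, -0.13 for oxLDL + pNaKtide against oxLDL, -0.00051 for IS + pNaKtide against IS, -0.078 and 0.058 for oxLDL + pNaKtide and IS + pNaKtide against Control, -0.099 for the oxLDL by pNaKtide difference and -0.13 for that between oxLDL and IS. Rac1 was also at -0.0011 with pNaKtide without a filter, at -0.030 (pNaKtide) and -0.016 (oxLDL + pNaKtide against Control) without both libraries, and at -0.0196 for the IS by pNaKtide difference with the offsets. Poldip2 with pNaKtide was at 0.0113 with DESeq2's size factors, 0.0076 with filterByExpr, 0.027 with the offsets, 0.0088 in limma and 0.011 in DESeq2. Poldip2 was at -0.034 for oxLDL + pNaKtide against Control with library size only, 0.033 for IS + pNaKtide against Control and -0.042 for IS against oxLDL with the offsets, -0.017 for the latter without both libraries, and -0.022 with library size only and -0.023 with the offsets for pNaKtide under oxLDL against under IS. With 1 library left out, Nox4 ran from -0.262 to 0.074 with pNaKtide and from -0.32 to 0.012 for the IS by pNaKtide difference, and Rac1 from -0.030 to 0.025 with pNaKtide, -0.016 to 0.041 with oxLDL + pNaKtide, -0.056 to 0.0025 with IS + pNaKtide (all against Control) and -0.0066 to 0.037 for IS against oxLDL. Poldip2 then ran from -0.068 to 0.027 with pNaKtide and from -0.0093 to 0.0695 for IS against oxLDL. With the offsets Rap1b was at -0.11 with oxLDL and 0.25 for oxLDL + pNaKtide against oxLDL, and Mthfd2l at -0.27 with oxLDL. Library size only moved the median of all genes from 0.04 to 0.17 with oxLDL, and from -0.09 to -0.30 for oxLDL + pNaKtide against oxLDL.

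Same-numbered libraries did not all deviate together (r from -0.661 to 0.743). In no comparison did every pair exceed an r of 0.1, and 0 to 3 of 5 libraries correlated best with their own number. The numbers were therefore not taken as a pairing. With the replicate block, the log2 fold change of Nox4 was 0.75 with oxLDL, 0.62 with IS and -1.02 for oxLDL + pNaKtide against oxLDL, and the number of members called was within 1.5 times in each comparison. Nox4 rests on 8 to 63 counts per library, which limits its precision, and Cybb and Ncf1 are below what these depths can compare. Whether the annotation or counting behind the table lost reads of Cyba is not known, so that its 3 counts may not stand for its level in the cells.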
